A study of Mus musculus with 30 samples.

Results

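The genes of the vascular endothelial growth factor (VEGF) pathway that encode its receptors, co-receptors and ligands were followed through brain endothelial cells (ECs) before and after culture. They were chosen by name: the receptors Kdr (VEGFR2), Flt1 (VEGFR1) and Flt4 (VEGFR3), the neuropilin co-receptors Nrp1 and Nrp2, and the ligands Vegfa, Vegfb, Vegfc and Pgf, in all 9 of the 21820 protein-coding genes and 45 of the 140198 annotated transcripts. RNA-seq was available from 14 libraries. The 2 acutely isolated EC samples were GFP-positive cells sorted from the brains of adult male mice homozygous for Tie2-GFP, a transgene whose endothelial promoter marks vascular cells, and 2 samples held the GFP-negative cells of the same mice. According to the study, its adult brain EC data combine a new cerebrum set with a cerebellum set published earlier. The titles of these samples name the brain only, and the part of brain region was not tested. The 6 WT cultures were brain ECs of young adult mice grown for 8 days, puromycin selection included, in an endothelial medium that contains added VEGF. WT replicates 1 and 2 came from C57BL/6J mice by isolation method A, and WT replicates 3 to 6 from Ctnnb1flex3/+;Tie2-GFP mice that had received 4-hydroxytamoxifen (4HT), by method B. The 4 beta-catenin stabilized cultures came from Ctnnb1flex3/+;Pdgfb-CreER;Tie2-GFP mice given 4HT, in which a Cre active in ECs deletes exon 3 of Ctnnb1. Method A was used for their replicates 1 and 2, and method B for 3 and 4. A legend of the study gives method A to more of the WT replicates than its methods section does, and the methods section was followed. Both give method B to WT replicates 3 and 4, so only the method of 5 and 6 is not certain. These are the WT wells of the method B 36-cycle comparisons below. The mouse strain of WT replicates 3 to 6 is given by the labels. ATAC-seq peak lists came from 2 acutely isolated, 6 WT cultured and 2 stabilized cultured EC samples.

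Culture replicates were wells, 2 to an experiment, each experiment pooling the brains of several mice, so p-values partly measure the spread between wells. The acutely isolated libraries were read as single reads of 75 cycles and the cultures as paired reads of 36 cycles, or of 150 cycles in WT replicates 3 and 4 from another facility. Effects of the read type and of culture cannot be told apart, and among the WT cultures the mouse strain goes with the isolation method. Total estimated counts per library ran from 24284843 to 94686456. The summed level of 8 EC markers was 2516 to 3039 TPM (transcript abundance per length, scaled to the same total in every library) in acutely isolated ECs, 1999 to 4576 TPM in WT cultures and 99.97 to 108 TPM in GFP-negative cells. The 7 pericyte markers summed to 508 to 529 TPM in acutely isolated ECs against 4.26 to 10.3 TPM in WT cultures, 5 astrocyte markers to 87.2 to 467 TPM against 3.36 to 45.7 TPM, 4 smooth muscle markers to 215 to 233 TPM against 501 to 3068 TPM, 4 lymphatic markers to 136 to 143 TPM against 3.63 to 8.26 TPM, and 3 erythrocyte markers to 4751 to 31510 TPM against 0 to 1.39 TPM. Not all genes of a list moved with its sum. By the call described below, 1 of the 4 lymphatic markers was lower in culture and 0 higher. The median log2 change of these 4 was 0.02. Of the 4 smooth muscle markers, 3 were called higher in culture and 1 lower. The part of these other cell types in the differences below was not tested. In such bulk samples, fewer cells of a type and less RNA per cell cannot be told apart.

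VEGF-A signals to ECs mainly through the receptor tyrosine kinase Kdr, which drives proliferation, migration and permeability. Flt1 binds VEGF-A, VEGF-B and PlGF (the product of Pgf) tightly but signals weakly, and is often regarded as a decoy for VEGF-A. It is made as a membrane receptor and as a soluble, secreted form that holds the ligand-binding domains only. Flt4 binds VEGF-C and is best known from lymphatic vessels and sprouting tip cells. The neuropilins bind VEGFs and class 3 semaphorins and present them to their signaling receptors. In the brain, neurons and glia are major sources of VEGF-A.

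The soluble and the full-length Flt1 transcripts are shown where they part, since the transcript shares below rest on the reads that tell them apart. Flt1 lies at chr5:147561604-147726011 (GRCm38, minus strand). Its coding transcripts Flt1-202 (1333 codons, full length, 30 exons) and Flt1-203 (688 codons, soluble, 13 exons) share the first 1972 coding bases. At the end of exon 13 of Flt1-202, at position 147639225, Flt1-202 splices to exon 14, while Flt1-203 runs on into the intron and ends after 31 codons of its own. The last 30 shared bases are in lower case and the first 30 bases of each transcript's own sequence in capitals.
Flt1-202: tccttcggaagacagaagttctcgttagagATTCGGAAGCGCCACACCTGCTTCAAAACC
Flt1-203: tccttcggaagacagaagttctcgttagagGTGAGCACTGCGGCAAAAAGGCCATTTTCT

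The promoters of Flt1 and Kdr are shown because these receptors had the highest RNA levels of the 9 genes in acutely isolated ECs and fell in culture. Each is the 250 bases before the RefSeq start on the gene's own strand (GRCm38.p6). Capitals mark CCGGAA (ETS, a family of factors central to endothelial genes) and GGGCGG (SP/KLF), on either strand.
Flt1 promoter, chr5:147726012-147726261, minus strand: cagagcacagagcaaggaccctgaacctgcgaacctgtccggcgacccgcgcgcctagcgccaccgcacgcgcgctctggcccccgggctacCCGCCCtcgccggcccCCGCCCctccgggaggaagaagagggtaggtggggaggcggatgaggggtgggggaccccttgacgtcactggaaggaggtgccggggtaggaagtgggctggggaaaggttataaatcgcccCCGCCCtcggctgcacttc
Kdr promoter, chr5:75978456-75978705, minus strand: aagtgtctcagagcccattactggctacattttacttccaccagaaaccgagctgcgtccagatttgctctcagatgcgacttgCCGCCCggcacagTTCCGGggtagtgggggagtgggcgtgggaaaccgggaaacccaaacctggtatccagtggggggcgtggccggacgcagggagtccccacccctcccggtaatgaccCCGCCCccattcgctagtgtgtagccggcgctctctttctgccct
The Kdr promoter held 1 ETS match, as did 12% of all promoters of this length, and the Flt1 promoter held none. SP/KLF matches numbered 3 in Flt1 and 2 in Kdr, and 32.7% of all promoters held at least 1. These matches are letters only, and do not show that a factor binds.

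In acutely isolated ECs Flt1, Kdr and Nrp1 stood far above the ligands. Flt1 was at 1175 and 1134 TPM, Kdr at 176 and 172 TPM, and Nrp1 at 91.5 and 84.7 TPM, with no overlap between these genes. Flt4 (22.8 and 12.4 TPM), Nrp2 (12.8 and 10.6 TPM) and Vegfc (4.45 and 18.8 TPM) followed and overlapped one another. Vegfb was at 1.65 and 4.75 TPM, Pgf at 1.20 and 0.71 TPM, and Vegfa at 0.00896 and 0.461 TPM, the last from 5 and 137 estimated counts. The second acutely isolated EC sample, which had the higher astrocyte marker sum, was also the higher in Vegfa, Vegfb and Vegfc. For Vegfc its 18.8 TPM lay above the GFP-negative cells, at 4.94 and 5.08 TPM. The part of astrocyte RNA in these values was not tested.

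The order differed in the WT cultures. Pgf was highest, with a lowest, median and highest value of 314, 366 and 1691 TPM, above every value of the other 8 genes. Nrp2 (23.8 to 155 TPM), Flt1 (44.4 to 98.7 TPM), Kdr (28.4 to 55.5 TPM) and Flt4 (13.6 to 46.9 TPM) came next, with overlapping ranges. Nrp1 (12.0 to 33.4 TPM), Vegfb (2.06 to 34.6 TPM), Vegfc (3.39 to 10.8 TPM) and Vegfa (2.72 to 8.82 TPM) had lower medians. The ranges of Vegfb, Vegfc and Vegfa overlapped one another, while Nrp1 overlapped Vegfb but lay above Vegfc and Vegfa. The ranges of Nrp1 and Vegfb also overlapped Kdr, Flt4 and Nrp2, and in WT replicates 1 and 2 Nrp1 was above Flt4.

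**Figure D1:**
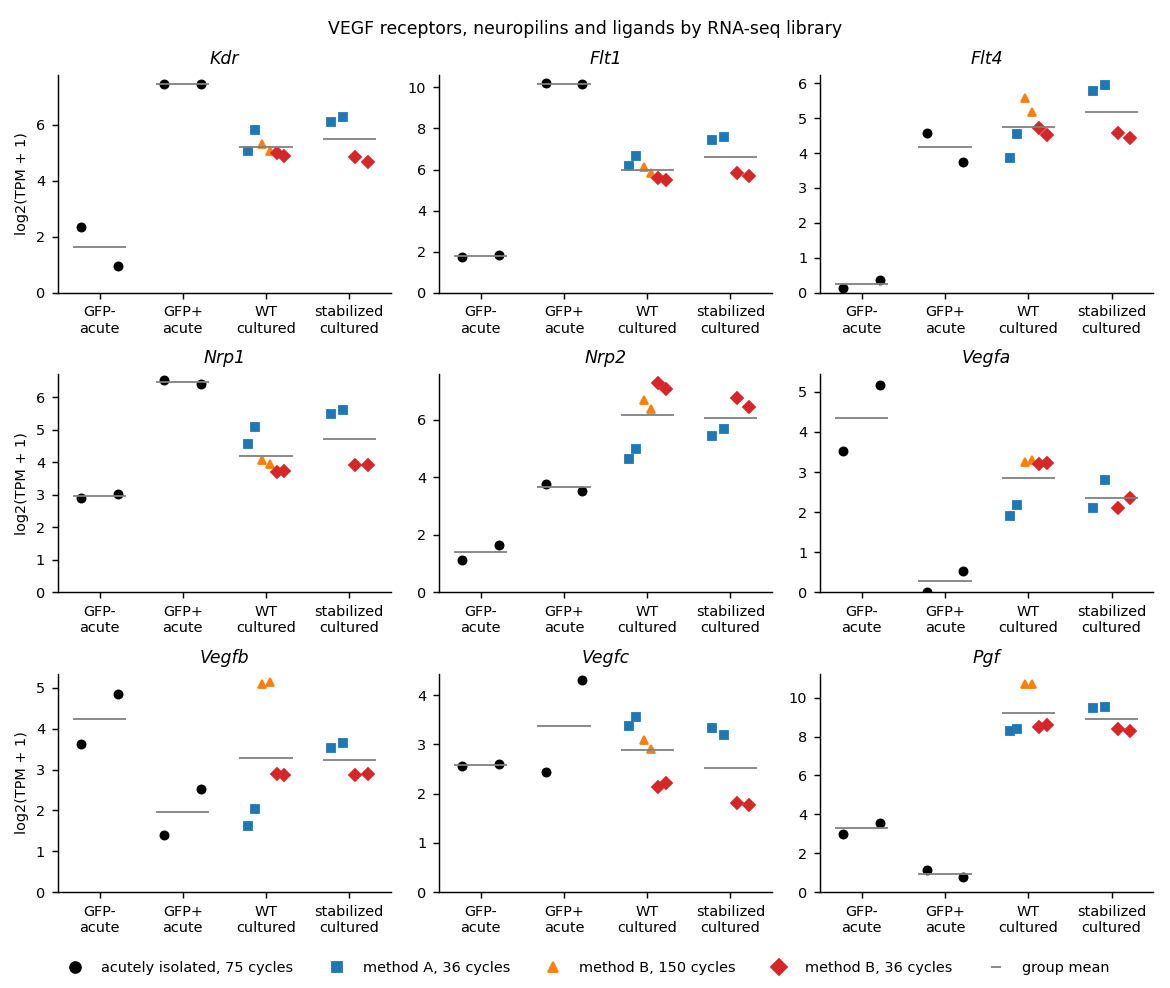
Level of each of the 9 genes on the log2(TPM + 1) scale, one point per RNA-seq library, with the group mean as a grey line; shapes and colors give the isolation method and read length. Flt1, Kdr and Nrp1 are highest in the acutely isolated GFP-positive samples, Pgf is highest in all 10 cultures, and the cultures separate by method or read length for several genes, Nrp2 among them.

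Comparison of GFP-positive with GFP-negative cells asked which of these genes belong to the EC side of the brain. The sort did not set the pericyte markers apart, whose sum was 508 to 529 TPM in GFP-positive and 354 to 695 TPM in GFP-negative samples. A gene was called where the edgeR quasi-likelihood test gave an adjusted p under 0.05, the change was over 2-fold, and the higher group had at least 5 TPM in every sample. Receptors and co-receptors were higher in ECs: 5 of the 9 genes were called higher, beside 8.3% of the 15102 genes tested, and 3 were called lower, beside 7.56%. Flt1 was at 2.30 and 2.54 TPM in GFP-negative cells, 290-fold below ECs (log2 fold change 8.18, SE 0.49, adjusted p = 0.00164). Kdr, at 4.07 and 0.921 TPM there, was 83.9-fold higher in ECs (6.39, SE 0.97, adjusted p = 0.0066). Flt4 was 126-fold higher (6.98, SE 0.74, adjusted p = 0.00248), its GFP-negative values being 0.0987 and 0.278 TPM.

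The co-receptors differed less between the sorted populations. Nrp1 was at 6.54 and 7.18 TPM in GFP-negative cells and 17.7-fold higher in ECs (4.14, SE 0.43, adjusted p = 0.00232). Nrp2 was 7.76-fold higher in ECs (2.96, SE 0.39, adjusted p = 0.00442). Each of the 5 genes was higher in both EC samples than in both GFP-negative samples.

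Of the ligands, 3 lay on the GFP-negative side. Vegfa, the main angiogenic ligand, was at 10.5 and 35.2 TPM in GFP-negative cells and 40.3-fold lower in ECs (−5.33, SE 1.5, adjusted p = 0.0417). Vegfb, a ligand of Flt1 linked to fatty acid handling, was at 11.3 and 28.0 TPM and 5.99-fold lower in ECs (−2.58, SE 0.69, adjusted p = 0.036). Pgf was at 7.07 and 10.8 TPM and 8.97-fold lower in ECs (−3.17, SE 0.71, adjusted p = 0.0215). Vegfc, at 4.94 and 5.08 TPM in GFP-negative cells, did not pass (0.82, SE 0.57, adjusted p = 0.336) and its groups overlapped. The 3 lower calls were less secure than the higher ones: 2 of them, Vegfa and Vegfb, were lost without GFP-negative replicate 2 (log2 fold changes −4.76 and −2.13; that of Vegfa was −4.47 without acutely isolated EC replicate 1 and −9.48 without replicate 2), that of Pgf without GFP-negative replicate 1 (−3.07) and that of Vegfb also without acutely isolated EC replicate 1 (−2.25).

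Culture was compared with acute isolation to ask what became of the pathway after 8 days outside the brain. The receptors Flt1 and Kdr and the co-receptor Nrp1 were lower in culture, while the ligand Pgf was higher by more than any other member moved. These were 3 of 9 members called lower, beside 10.2% of the 13784 genes tested, and 1 of 9 called higher, beside 13.5%. Flt1 was 23.3-fold lower in estimated counts (−4.54, SE 0.58, adjusted p = 0.00056) and Kdr 11.3-fold lower (−3.50, SE 0.47, adjusted p = 0.000672). Nrp1 was 11.1-fold lower (−3.47, SE 0.57, adjusted p = 0.00159). In each, all 6 cultures lay below both acutely isolated samples. Mean TPM went from 1154 to 64.0 for Flt1, from 174 to 36.4 for Kdr and from 88.1 to 18.5 for Nrp1, so for Kdr and Nrp1 the difference was smaller on the TPM scale than in counts.

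Pgf was 544-fold higher in culture (9.09, SE 0.85, adjusted p = 0.00014), from 173 and 57 estimated counts in acutely isolated ECs. The 2 cultures read at 150 cycles, at 1691 and 1673 TPM, stood apart from the other 4 at 314 to 379 TPM. The call did not rest on them: from the 36-cycle cultures alone Pgf stood at 8.66 on the log2 scale.

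The remaining members were not called. Vegfa was higher in all 6 cultures than in either acutely isolated sample (3.40, SE 1.19, adjusted p = 0.0429), but its culture values of 2.72 and 3.52 TPM in WT replicates 1 and 2 missed the 5 TPM minimum. Its value was 2.40 (adjusted p = 0.072) without acutely isolated EC replicate 1 and 7.50 without replicate 2. Nrp2 was also above both acutely isolated samples in all 6 cultures, at 23.8 and 30.8 TPM by method A and 82.0 to 155 TPM by method B, and the difference of 1.80 (SE 0.93, adjusted p = 0.143) did not pass over all cultures. Against the method B 36-cycle cultures alone it was called (2.93), and against method A alone its value was 0.43.

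For Flt4 the scale set the direction. Mean TPM was 27.6 ± 11.8 (SD, n = 6) in culture against 17.6 ± 7.29 (SD, n = 2), whereas the fit on counts gave −0.90 (SE 0.41, adjusted p = 0.101). Without acutely isolated EC replicate 2 the count value was −1.46 and was called lower, and without replicate 1 it was −0.05. Vegfb (1.29, SE 0.80, adjusted p = 0.216) and Vegfc (−0.71, SE 0.51, adjusted p = 0.285) had overlapping groups.

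**Figure D2:**
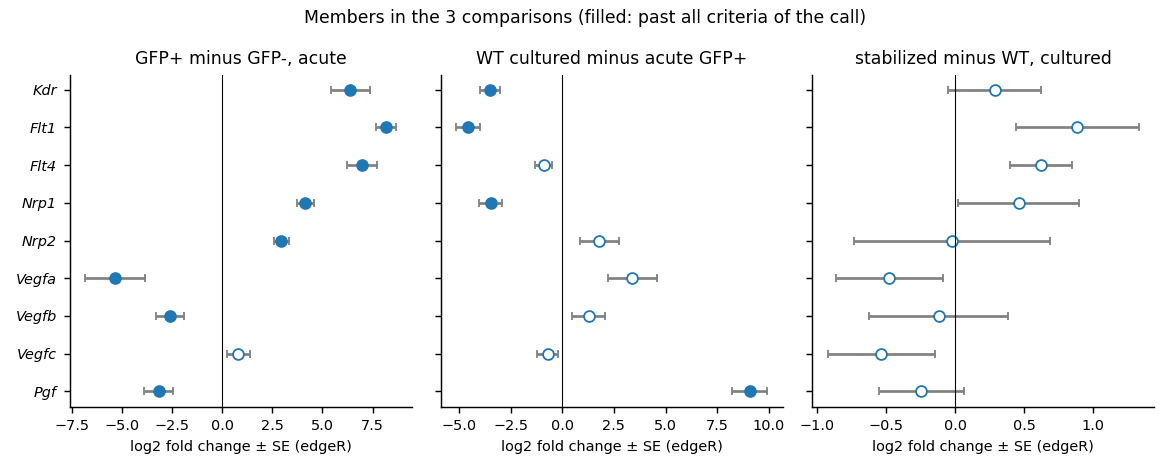
Log2 fold change with its standard error for each gene in the 3 comparisons, from edgeR; filled points passed the call. The 5 receptors and co-receptors lie to the right and 3 ligands to the left in the sorted populations, Pgf lies far to the right and Flt1, Kdr and Nrp1 to the left in culture, and no gene is filled for stabilized against WT cultures.

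Genes that act with these receptors were read from 5 lists, given by their counts beside the median of all genes tested in culture (0.10 on the log2 scale) and the shares of all genes called, 13.5% higher and 10.2% lower in culture and 8.3% higher and 7.56% lower in the sort. The counts of short lists moved with the libraries and settings used. Among 14 receptor partners and trafficking genes, 3 were called higher in culture and 3 lower, with a median of −0.50. The integrin subunits Itgav (2.54) and Itgb3 (3.55), which together form a receptor that associates with Kdr, and the neuropilin adaptor Gipc1 (2.46) rose. Ptprb (−2.96), the endothelial phosphatase VE-PTP, fell, as did the adaptor Cd2ap (−2.59) and the motor Myo6 (−1.90). Ptprb was also 8.17 higher on the log2 scale in ECs than in GFP-negative cells. In that sort, 4 of the 14 genes were called higher and 2 lower.

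Among 12 semaphorins and plexins, which share the neuropilins with VEGFs, 1 was called higher and 1 lower in culture (median 1.17). Sema3c, the most abundant of the listed semaphorins in acutely isolated ECs at a mean of 340 TPM, fell to 8.42 TPM (−5.15, SE 0.43, adjusted p = 9.53e-05). Sema3a, a repulsive guidance ligand for Nrp1, rose from 0.354 to 6.04 TPM (5.10, SE 1.11, adjusted p = 0.00612). Sema3d and Sema3e also passed the p threshold upward (adjusted p = 0.0118 and 0.00311) but missed the TPM minimum. Plxnd1, the receptor of Sema3e, gave −0.51 (adjusted p = 0.482). In the sort, 4 of the 12 were called higher in ECs and 0 lower. Against the method B 36-cycle cultures alone, 5 were called higher in culture and 2 lower.

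Of 26 signal transduction genes, 25 could be tested in culture, with 7 called higher, 5 lower and a median of 0.28. The kinases Map2k1 (2.97), Src (3.45) and Akt1 (1.71) were among those higher in counts, as were Pxn (1.36), Mapkapk2 (1.47) and Hspb1 (1.47). For Src, which couples many receptors to the cytoskeleton, the TPM values overlapped, at 6.86 to 18.9 in acutely isolated ECs and 10.1 to 48.3 in culture. Prkcb, a protein kinase C isoform, was at a mean of 29.5 TPM in acutely isolated ECs and 0.136 TPM in culture (−7.78). Nck1 (−1.42), Pik3ca (−1.36), Ptk2 (−1.07) and Mapk3 (−1.47) were the other 4 that fell. Lower calls numbered 2 without acutely isolated EC replicate 1 and 3 without WT replicate 3 or 4, and summed wells gave 4 higher and 1 lower. In the sort, 8 of 26 were called higher in ECs and 2 lower, the former 3 to 12 with 1 sample left out.

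Of 8 oxygen-sensing genes, Egln3, a prolyl hydroxylase that hypoxia itself induces, rose (5.55), while the transcription factor Epas1 (HIF-2α) fell from a mean of 835 to 81.2 TPM (−3.65, SE 0.52, adjusted p = 0.000874) and its partner Arnt fell (−1.88). Hif1a gave 0.64 (adjusted p = 0.13). The list had 1 higher and 2 lower calls and a median of 0.10, and in the sort 2 higher and 0 lower. The higher call was lost against either the method A or the method B 36-cycle cultures alone (0 higher by edgeR), and lower calls numbered 1 without acutely isolated EC replicate 1.

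VEGF-induced genes moved in both directions. Of 11, 5 were called higher in culture and 2 lower, with a median of 0.01. Apln (5.43) and Angpt2 (5.28), secreted regulators of vessel growth, reached means of 1332 and 679 TPM, and Esm1 (4.32), Cxcr4 (2.34), both marks of tip cells, and Rcan1 (1.29), a calcineurin regulator, also rose. The immediate early genes Nr4a1 (−3.69) and Nr4a2 (−5.23) fell. Dll4, a Notch ligand of tip cells, gave −0.28 (adjusted p = 0.816). Against the method B 36-cycle cultures alone 2 were called higher and 4 lower, and 3 were higher without acutely isolated EC replicate 2. In the sort, 3 of the 11 were called higher in ECs and 0 lower, and 1 higher without either GFP-negative sample.

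Beta-catenin stabilized cultures were compared with WT cultures to ask whether the pathway differed where beta-catenin had been stabilized. Neither the deletion nor beta-catenin signaling was checked here. No member was called by edgeR, and neither was any of the 12958 genes tested (0%). At an unadjusted p under 0.05, 1 member (Flt4) and 1344 genes (10.4%) passed. DESeq2 called 15 genes higher and 3 lower, 0 of them members. Flt1 was at 172, 190, 55.5 and 50.5 TPM in stabilized replicates 1 to 4, a log2 difference from WT of 0.88 (SE 0.44, adjusted p = 0.505). Flt4 was at 53.7, 61.1, 22.9 and 20.8 TPM (0.62, SE 0.22, adjusted p = 0.43). In both, the method A wells were high and the method B wells lay within the WT range.

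The other 7 members also had overlapping groups. Kdr was at 67.6, 76.9, 27.6 and 24.7 TPM (0.28, SE 0.34) and Nrp1 at 43.5, 47.7, 14.05 and 14.07 TPM (0.46, SE 0.44). Pgf was at 709, 733, 336 and 312 TPM (−0.25, SE 0.31) and Nrp2 at 42.5, 50.1, 107 and 86.2 TPM (−0.02, SE 0.71). Vegfa (3.33 to 6.02 TPM), Vegfb (6.28 to 11.6 TPM) and Vegfc (2.39 to 9.15 TPM) gave −0.48 (SE 0.39), −0.12 (SE 0.50) and −0.54 (SE 0.39). The EC markers summed to 2197 to 6258 TPM and the smooth muscle markers to 461 to 2561 TPM in stabilized cultures, ranges that overlapped those of WT. The members' adjusted p-values were between 0.43 and 0.994. By edgeR over all cultures without a covariate, the 5 pathway lists had 0 calls in either direction. With isolation method as a covariate, 1 VEGF-induced gene and 1 of the semaphorins and plexins were called higher.

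Since levels of most members differed between wells of different methods, the stabilized and WT wells of 36 cycles were also compared within each method, 2 against 2. These are wells of 1 experiment per genotype, so experiment and genotype cannot be told apart, and the edgeR p-values measure the spread between wells. By method A, Vegfb was called 2.74-fold higher in stabilized cultures (1.45, SE 0.16, adjusted p = 0.00102), beside 5.39% of all genes called higher and 0.918% lower. Flt4 (0.95, adjusted p = 0.000959), Flt1 (0.59, adjusted p = 0.00349), Pgf (0.47, adjusted p = 0.0106) and Vegfc (−0.97, adjusted p = 0.000768) passed the p threshold at under 2-fold.

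By method B the Vegfa value stood out. Vegfa was at 8.23 and 8.31 TPM in WT replicates 5 and 6 and at 3.34 and 4.11 TPM in stabilized replicates 3 and 4, which was called 2.08-fold lower (−1.06, SE 0.09, adjusted p = 0.00105), beside 0.28% of all genes called lower and 1.08% higher. By method A the Vegfa value was 0.05 (SE 0.23). Flt1 (0.29, adjusted p = 0.02), Nrp1 (0.32, adjusted p = 0.00875), Nrp2 (−0.46, adjusted p = 0.0208) and Vegfc (−0.39, adjusted p = 0.0213) passed the p threshold at under 2-fold. Flt1 was higher and Vegfc lower in the stabilized wells by both methods, and Kdr passed in neither (−0.03 and −0.07). These values come from counts, and the TPM scale differed by method A. There Kdr was at 32.6 and 55.5 TPM in WT and at 67.6 and 76.9 TPM in stabilized wells, without overlap. Nrp1 (22.65 and 33.4 against 43.5 and 47.7 TPM) and Nrp2 (23.8 and 30.8 against 42.5 and 50.1 TPM) were also higher. Their count values were −0.06 and −0.02. Pgf was at 314 and 336 against 709 and 733 TPM. Of the pathway lists, VEGF-induced genes had 4 of 11 called higher by method A and 3 by method B, receptor partners 3 by method A, semaphorins and plexins 2 by method A and 3 by method B with 1 lower, and oxygen sensing 1 by method A. With 36-cycle wells summed and method as a covariate, 1 VEGF-induced gene was called higher.

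The difference between the methods was itself tested in 8 libraries by an interaction term, which passed an adjusted p of 0.05 in 7 of 9 members, beside 51.7% of all genes. The 2 members that did not pass were Kdr (−0.04, SE 0.15) and Flt1 (−0.30, SE 0.12, adjusted p = 0.0708). With so high a share among all genes, the members' share is no result about the members.

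**Figure D3:**
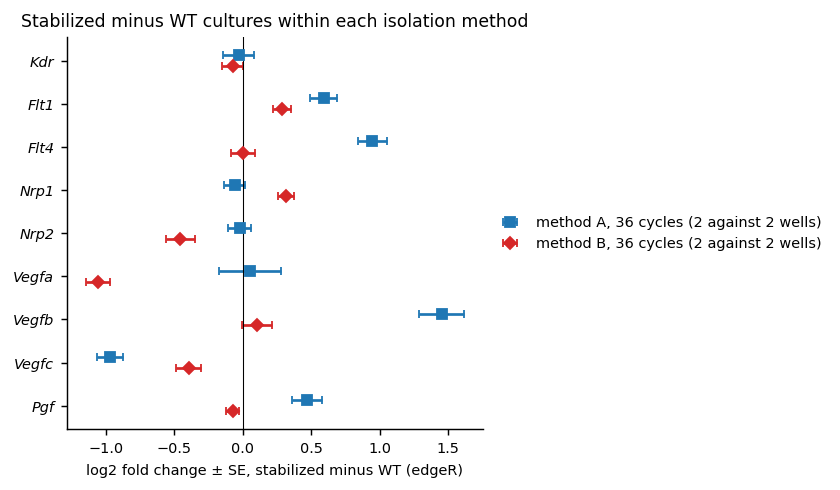
Log2 fold change of stabilized minus WT cultures with its standard error, from edgeR, for 2 against 2 wells by each isolation method. Vegfb and Flt4 lie to the right by method A and near 0 by method B, Vegfa lies to the left by method B and near 0 by method A, and both points of Kdr lie at 0.

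Transcript values were used to ask whether the soluble and full-length forms of Flt1 moved apart, and no such change was detected. From acutely isolated ECs to culture, full-length Flt1-202 went from 205 and 337 TPM to between 4.24 and 34.6 TPM (−4.13, SE 0.88, adjusted p = 0.0108), and soluble Flt1-203 from 253 and 346 TPM to between 16.04 and 44.2 TPM (−4.21, SE 0.49, adjusted p = 0.00118). Relative to the rest of the gene, the change was −0.10 for Flt1-202 (adjusted p = 0.999) and −0.17 for Flt1-203 (adjusted p = 0.975).

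As a share of all Flt1 TPM, Flt1-203 was 26.0 ± 6.36% (SD, n = 2) in acutely isolated ECs, 47.4 ± 5.65% (SD, n = 2) in GFP-negative cells, 38.7 ± 9.80% (SD, n = 6) in WT cultures and 50.0 ± 1.70% (SD, n = 4) in stabilized cultures. By the two-sided exact permutation test, the WT cultures were not shown to differ from acutely isolated ECs (12.6 percentage points, p = 0.214, where 0.0714 is the smallest this design allows), and neither did the sorted populations (−21.4 points, p = 0.333, the smallest possible). The stabilized cultures were 11.3 points above WT (exact p = 0.0286, or 0.0857 adjusted over the 3 comparisons). With noncoding transcripts left out of the denominator the order of the means turned: of the TPM of the 2 coding transcripts alone, Flt1-203 held 60.8 ± 13.6% in WT and 52.5 ± 1.14% in stabilized cultures. The 150-cycle WT replicates 3 and 4 were high at 77.1 and 79.1%, and the 36-cycle WT cultures, at 48.4 to 56.1%, spanned the stabilized range of 50.9 to 53.7%.

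Noncoding transcripts made up 50.3 ± 15.1% of Flt1 TPM in acutely isolated ECs, 31.5 ± 28.2% in WT and 4.79 ± 2.81% in stabilized cultures. In acutely isolated ECs this was mostly Flt1-205, a processed transcript of 274 bases at chr5:147614756-147615242, with 710 and 336 TPM, besides Flt1-204 at 104 TPM in the second sample. Flt1-205 was at 0 to 1.04 TPM in every culture and GFP-negative sample. In acutely isolated ECs it took only 0.938 and 0.312% of Flt1 estimated counts, its TPM resting on an effective length of 32 bases against 115 to 146 bases in cultures. Its change relative to the rest of the gene was −5.46 on the log2 scale in culture (adjusted p = 0.00266), and the call was lost without acutely isolated EC replicate 1 (−4.37, adjusted p = 0.0822). In WT cultures the noncoding transcript was mostly Flt1-201, of 2049 bases, at 43.3 and 34.8 TPM in the 150-cycle replicates 3 and 4, at 23.6 and 18.4 TPM in the method A replicates 1 and 2, and at 1.01 and 0.81 TPM in replicates 5 and 6. Its relative change in culture (6.51, adjusted p = 0.00391) was lost without acutely isolated EC replicate 2 (adjusted p = 0.0596). The Flt1 levels from coding transcripts only were 458 and 684 TPM in acutely isolated ECs and 20.3 to 78.7 TPM in WT cultures, still without overlap.

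**Figure D4:**
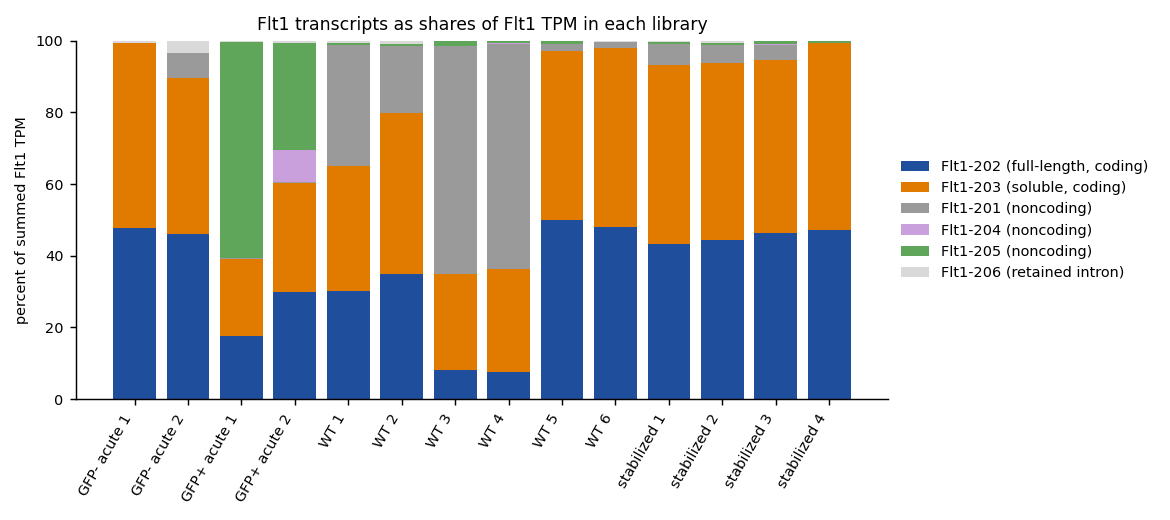
Share of each annotated Flt1 transcript in the summed Flt1 TPM of every library, as stacked bars that add to 100 percent. Flt1-205 fills much of the bars of the 2 acutely isolated EC samples and Flt1-201 those of WT replicates 3 and 4 and part of those of 1 and 2, while in the stabilized cultures Flt1-202 and Flt1-203 take about equal shares.

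Taken by themselves, 13 of the 33 member transcripts tested differed between culture and acute isolation at an adjusted p under 0.05, 6 higher and 7 lower, where 29% of all transcripts did. Of these genes' transcripts, 5 changed relative to the rest of their gene in culture (adjusted p under 0.05), where 18% of all transcripts tested did. Besides Flt1-205 and Flt1-201 these were Nrp2-203, Pgf-202 and Vegfa-201. Vegfa-201, which encodes the shortest coding form of the gene at 146 codons, was at 6.59 and 8.38 TPM in GFP-negative cells, at 0 in both acutely isolated EC samples and at 0.87 to 2.09 TPM in WT cultures. Vegfa-202, of 368 codons, was at 3.59 to 5.67 TPM in WT replicates 3 to 6 and at 0.66 and 1.34 TPM in replicates 1 and 2. The other 11 annotated Vegfa transcripts stayed at or below 1.81 TPM in all libraries except Vegfa-212, at 18.1 TPM in GFP-negative replicate 2 only.

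In culture most Pgf signal was the 158-codon transcript Pgf-201, at 306 to 1462 TPM in WT cultures. Pgf-204, of 162 codons, was at 227 and 230 TPM in WT replicates 3 and 4 and at no more than 1.68 TPM elsewhere, and was the 1 member transcript whose share differed between stabilized and WT cultures (adjusted p = 0.0251, beside 0.206% of all transcripts). Those 2 libraries alone had 150 cycles, and they also came from another facility and an experiment of their own, which cannot be told apart. Nrp2-201 behaved alike, at 60.3 and 49.5 TPM in those libraries and at 14.4 TPM or less elsewhere, while Nrp2-204 and Nrp2-205 were highest in the method B 36-cycle WT cultures, at 44.9 to 54.8 TPM. In the sort, no member transcript passed; edgeR called 0 of 42777 transcripts there (0%), and 4 of all transcripts (0.0106%) relative to their gene.

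ATAC-seq was used to ask whether the chromatin at these genes was open before and after culture. Peaks had been called in each library by itself, and 31779 to 98732 per library were kept at over 2-fold enrichment and a −log10 q over 2. The acutely isolated libraries and WT replicate 2 had the fewest. All 9 members had a peak within 1 kb of an annotated start in both acutely isolated samples (54.8% of all genes did), and 8 of 9 in all 6 WT cultures (53.9% of all genes), Vegfb lacking one in WT replicate 2. The same 8 had it in all of these libraries (51% of all genes), and no member had it in the acutely isolated samples alone (0.261%) or the WT cultures alone (1.88%). At the starts of protein-coding transcripts only, a narrower choice made after seeing the data, 8 of 9 had a peak in both acutely isolated samples (53.8%) and 7 of 9 in all 6 WT cultures (52.7%), where Nrp1 and Vegfb each lacked it in 1.

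At Kdr and Flt1, whose RNA fell, the promoter peak remained but was lower. The Kdr peak had a fold enrichment over local background of 12.9 and 11.7 in acutely isolated ECs against 5.26 to 9.23 in WT cultures and 6.25 and 7.85 in stabilized cultures. That of Flt1 was 11.5 and 10.5, against 4.80 to 7.16 and 6.36 to 6.70. Nrp2, whose RNA did not fall, showed the same order, at 12.6 and 11.6 against 6.22 to 10.9. Nrp1, whose RNA fell, did not at its coding start, at 3.79 and 2.27 against 3.39 to 4.5 in 5 WT cultures and no peak in WT replicate 2. Over all its annotated starts, the strongest Nrp1 peak was at 7.37 and 8.76 against 5.06 to 8.78, with WT replicate 2 lowest. The peaks of Flt4 (8.67 and 9.51 against 8.21 to 12.1) and Vegfc (8.67 and 9.87 against 8.18 to 13.3) overlapped between the groups. Fold enrichment depends on depth and background in each library, and these differences were not tested.

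Pgf was the opposite. At the starts of its coding transcripts no peak was found in either acutely isolated sample, and one was found in all 6 WT cultures, at 5.75 to 11.9, and in both stabilized cultures, at 8.17 and 8.94. Such a pattern at coding starts was found in 1.71% of all protein-coding genes. The acutely isolated peaks counted for Pgf above, at 4.37 and 3.68, lay at an internal start of the retained-intron transcript Pgf-203.

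**Figure D5:**
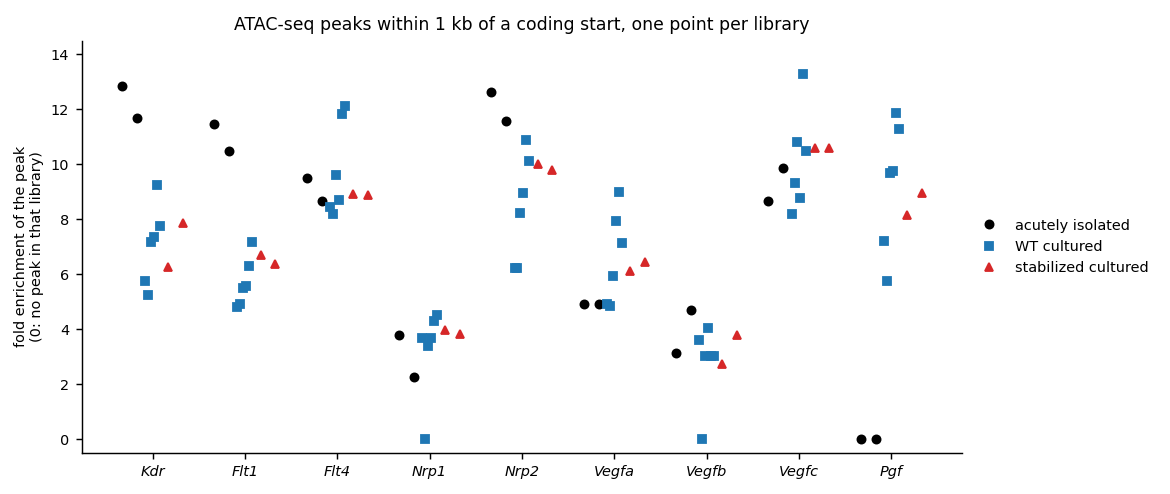
Fold enrichment of the strongest ATAC-seq peak within 1 kb of a coding start, one point per library, with 0 where no peak was found. Kdr, Flt1 and Nrp2 are highest in the acutely isolated samples, and Pgf has points at 0 in both acutely isolated samples and above 5 in all cultures.

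Within the genes and 10 kb to either side, 159 merged peak regions were found. Of these, 7 were present in both acutely isolated samples and no WT culture (2.93% of all 126212 regions genome-wide), 5 in all 6 WT cultures and neither acutely isolated sample (8.09%), and 26 in all 8 (13.4%). The acute-only regions were at Flt1 (3), Nrp2 (2), Nrp1 and Flt4, and the culture-only ones at Vegfc (2), Pgf (2) and Nrp1. Kdr, Vegfa and Vegfb had neither kind. Of the 12, 5 are shown here, chosen after their values and letters were seen, as 200 bases around the summit on the plus strand of GRCm38.p6, since they mark where chromatin at these genes differed. Capitals mark AACAAT (SOX), CTTTGA (TCF/LEF), GGAATG (TEAD) and ACGTG (the core of a hypoxia response element) on either strand. The ETS and SP/KLF letters above were also searched, as was the AP-1 sequence TGANTCA, and all 3 are absent from these windows. The Nrp2 window has no capitals because none of the letters searched were found.
Flt1, acute only, in an intron 51.7 kb after the start, chr5:147674337-147674536: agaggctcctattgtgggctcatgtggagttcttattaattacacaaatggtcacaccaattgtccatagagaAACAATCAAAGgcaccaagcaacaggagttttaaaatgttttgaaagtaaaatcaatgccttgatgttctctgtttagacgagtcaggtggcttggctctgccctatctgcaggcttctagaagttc
Nrp1, acute only, in an intron 15.0 kb after the start, chr8:128373495-128373694: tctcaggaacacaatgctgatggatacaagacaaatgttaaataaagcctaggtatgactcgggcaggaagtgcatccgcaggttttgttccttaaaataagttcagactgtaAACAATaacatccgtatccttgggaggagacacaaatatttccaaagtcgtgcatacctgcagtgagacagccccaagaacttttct
Nrp2, acute only, in an intron 50.0 kb after the start, chr1:62753126-62753325: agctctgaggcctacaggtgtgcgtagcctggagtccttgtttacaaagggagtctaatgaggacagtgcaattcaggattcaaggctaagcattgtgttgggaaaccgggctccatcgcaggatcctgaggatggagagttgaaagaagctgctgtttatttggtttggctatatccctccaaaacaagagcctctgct
Vegfc, culture only, in an intron 37.2 kb after the start, chr8:54114666-54114865: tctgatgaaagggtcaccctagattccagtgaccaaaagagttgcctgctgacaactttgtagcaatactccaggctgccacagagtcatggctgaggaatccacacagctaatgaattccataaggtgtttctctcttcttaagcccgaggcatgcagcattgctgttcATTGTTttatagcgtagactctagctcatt
Pgf, culture only, upstream of the gene, chr12:85186457-85186656: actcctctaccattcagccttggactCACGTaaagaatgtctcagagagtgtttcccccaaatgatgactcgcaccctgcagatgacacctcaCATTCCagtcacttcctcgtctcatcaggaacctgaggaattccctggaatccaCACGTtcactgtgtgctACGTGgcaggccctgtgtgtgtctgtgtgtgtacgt

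The Flt1 region had a mean fold enrichment of 5.13 in acutely isolated ECs and no peak in any culture, and its SOX and TCF/LEF letters overlapped in one run. The Nrp1 region, at 9.49, held 1 SOX match. The Nrp2 region shown, at 8.68, and the acute-only region at Flt4, at 8.47, were stronger than that of Flt1 and held none of the 7 motifs. Of all regions genome-wide, 12.8% held a SOX and 13.3% a TCF/LEF match. Among acute-only regions 18.3% and 30.7% did, and among culture-only regions 14.1% and 11.7%. At the members, these letters were not limited to acute-only regions. Of the regions not shown, the other culture-only one at Vegfc held SOX and TCF/LEF letters side by side. The culture-only region at Nrp1 held a TCF/LEF match. The other acute-only region at Nrp2 held both kinds of letters, apart from each other. The Vegfc region shown averaged 16.4 in WT and 16.9 in stabilized cultures and held 1 SOX match. The Pgf region, centered 8.6 kb before the gene's start, averaged 14.9 and 18.1 and held 1 TEAD and 3 hypoxia response element matches, which 17.1% and 11.9% of all regions held at least once. AP-1 letters, held by 25.1% of all regions and 49.2% of culture-only regions, were in none of the 12 regions named by these classes at the members.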

How the data were processed

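RNA was deposited by the authors as Salmon 0.14.0 tables of estimated counts and TPM per GENCODE M21 transcript, and open chromatin as MACS2 2.1.2 peak lists per library (GRCm38, HISAT2 2.1.0) with fold enrichment, −log10 p and −log10 q-values. The score in the deposited lists is the −log10 q scaled to whole numbers and was not used. These deposited values start after alignment, so multi-mapping and the split between overlapping transcripts follow Salmon's model. Estimated counts were summed per gene, rounded and tested with edgeR 4.0.16 (quasi-likelihood, TMM scaling, low counts filtered, Benjamini-Hochberg adjustment over all genes) between the groups named, in R 4.3.3. Transcript shares were tested with edgeR's diffSpliceDGE. The code was tested on simulated data. Scaling, filter, length offset, replicate block, left-out wells, DESeq2 1.42.0 and peak thresholds were the alternatives. Named were the 9 members, listed pathway genes, Flt1 and Vegfa transcripts, and for each member 3 genes of similar profile. Nrp2 and Pgf transcripts, the coding-start peaks and the peak regions shown were named after their values were seen. Members and lists were chosen with earlier results of these data known. Peaks were compared with bedtools 2.31.1. Promoter sequences matched for 9 members in RefSeq. Deletion of Ctnnb1 exon 3 was not checked here. Results for some genes that the naming rule covers are not reported here.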

Additional observations from a re-analysis of the deposited data

Results flagged for a closer look

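Of the WT cultures, replicate 2 stood apart in Kdr, at 55.5 TPM against 28.4 to 38.4 TPM in the other 5, a gap of 0.631 of the whole range (the limit for 6 samples at the 95% level is passed). It was 1 of 35 groups examined, and chance alone marks about 1 in 20.

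The stabilized minus WT difference was not the same by both isolation methods in 7 members, by the interaction term of edgeR over 8 libraries. Each genotype was 1 experiment of 2 wells per method, so the p-values measure the spread between wells. As method B minus method A, the differences were −0.945 for Flt4, 0.378 for Nrp1, −0.431 for Nrp2, −1.11 for Vegfa, −1.34 for Vegfb, 0.578 for Vegfc and −0.543 for Pgf, all on the log2 scale. The adjusted p-values lay between 0.000537 and 0.0357, where 51.7% of all genes passed. The genotype of the WT mice, the experiment and the method change together here and cannot be told apart.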

How the results depend on the processing

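In culture against acutely isolated ECs, the calls of Flt1, Kdr, Nrp1 and Pgf held under every alternative run, and members called higher numbered 2 without the TPM minimum (with Vegfa) and against the method B 36-cycle cultures alone (with Nrp2). Over all genes, 3160 were called higher and 2825 lower without the TPM minimum, and 834 lower with the wells of each experiment summed. Scaling by library size alone moved the median gene by 0.20 in culture and −0.38 in the sort. Vegfb was −0.42 and Vegfc 0.050 against method A cultures alone. In the sort, 1 member was called lower with an offset for transcript length (669 genes higher), 2980 genes were called lower without the TPM minimum, and leaving out samples gave 1 to 3 members lower and 663 to 1662 genes higher.

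Replicate numbers did not pair the cultures. Deviations of same-numbered stabilized and WT wells correlated at 0.54 and 0.53 in replicates 1 and 2 and at 0.06 or less in replicates 3 and 4. In the sort both populations came from the same mice, but the main test was unpaired. Same-numbered samples correlated at 0.06 there. With the number as a replicate block, Vegfb (−0.34) and Vegfc (0.12) turned in culture, Nrp2 (0.92), Vegfa (0.13) and Vegfb (0.30) turned in stabilized against WT cultures, and 149 genes were called higher and 24 lower there. No call of a member changed under the block.

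For stabilized against WT cultures, the genes called higher and lower were 15 and 3 by DESeq2, 692 and 118 by method A alone, 138 and 36 by method B 36-cycle alone, and 1 and 1 with 36-cycle wells summed and method as a covariate, and 6 were higher with the covariate alone. Members called numbered 1 higher by method A and 1 lower by method B. Turned values were, in 36-cycle cultures, Kdr −0.054, Vegfb 0.57 and Pgf 0.18; by method A, Kdr −0.031, Nrp1 −0.060, Vegfa 0.051, Vegfb 1.45 and Pgf 0.47; by method B, Kdr −0.075 and Vegfb 0.10; with the covariate, Nrp2 0.16 and Vegfb 0.40; with summed wells, Kdr −0.066, Vegfb 0.77 and Pgf 0.21. Without each replicate, Nrp2 ran from −0.44 to 0.41 and Vegfb from −0.33 to 0.13. The causes were not tested.

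The interaction of Kdr was 0.082 by library size and ran from −0.20 to 0.13 without each replicate. That of Nrp2 no longer passed by library size (−0.31, edgeR adjusted p = 0.0823). The Vegfa interaction was lost with the length offset (−0.86, edgeR adjusted p = 0.0601). Member transcripts that changed relative to their gene numbered 2 to 4 without each replicate, and Flt1-202 gave 0.056 from 36-cycle cultures. The soluble Flt1 share, in points, was −4.29 in culture, 3.84 in the sort and −0.14 for stabilized cultures as a share of estimated counts, and 2.78 and −8.35 for the last 2 as a share of coding transcripts. Without each replicate, the stabilized difference ran from 8.96 to 13.5. Alternatives on summed wells with a covariate, on the interaction, on transcripts, on coding shares and on coding starts were chosen after seeing the data. With 2 acutely isolated samples, 1 library can decide a call, as for Flt4, and levels under 1 TPM rest on few counts.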

Other observations

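For each member, the protein-coding genes with the most similar profile over the 14 libraries were found among 8748 genes, as the smallest root mean square difference of centered log2(TPM + 1) values. The endothelial transcription factor Ets1 was closest to Kdr (0.44), followed by Layn (0.45) and Podxl (0.49). The sialomucin Podxl was also closest to Flt1 (0.48), followed by Prom1 (0.53) and the angiopoietin receptor Tek (0.68). Nrp1 was nearest to the flippase Atp10a (0.31) and to Kif26a (0.35), and Flt4 to Trim16 (0.35), the junction protein Heg1 (0.39) and Ly75 (0.41). The nearest gene to Nrp2 was the death receptor Tnfrsf10b (0.50), with Anxa3 (0.60) and Dph5 (0.60) next.

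Among the ligands, Pgf was nearest to the galectin Lgals1 (0.32), S100a6 (0.66) and the matrix protein Thbs1 (0.72). Vegfa was nearest to the Wnt receptor Fzd1 (0.30), Egfr (0.49) and Mras (0.49), Vegfb to Celf2 (0.29), Wfs1 (0.32) and Cmip (0.34), and Vegfc to Zkscan3 (0.27), Tnip2 (0.28) and Riok1 (0.28). Read type differed between acutely isolated and cultured libraries, and isolation method and experiment differed within the culture groups, so these are descriptions of profiles.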
